A study of Mus musculus with 12 samples.

Results

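Collagens are the main structural proteins of the extracellular matrix. Their chains wind around each other into a helix, are hydroxylated and folded in the endoplasmic reticulum, and are then processed and cross-linked outside the cell. Type IV collagen forms the network of basement membranes, the multiplexins (types XV and XVIII) lie in the basement membrane zone of vessels and epithelia, fibrillar collagens (types I, III and V among them) form the fibres of connective tissue, and type VI collagen forms beaded filaments around cells. In islets, the basement membrane along the capillaries is made largely by the endothelium, since beta cells lay down little matrix of their own.

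The collagen genes described here were every gene symbol in the deposited table that read Col, digits, the letter a and digits, with nothing after. The rule gave 43 genes in a table of 22793 rows. By structure they comprised 11 fibrillar genes, 9 genes of fibril-associated collagens (FACIT), 6 of type IV, 6 of type VI, 4 of transmembrane collagens, 4 of short chain and anchoring collagens, 2 multiplexins and Col28a1, a collagen with von Willebrand factor domains. Emid2, an older symbol of Col26a1, did not match the rule and stood between 1 and 19.8 in the 12 libraries.

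RNA was sequenced from RIP-rtTA; TetO-VEGF-A mice in 4 groups of 3 libraries. Macrophages (CD11b+) and endothelial cells (CD31+) were sorted by flow cytometry from dispersed islets after 1 week of doxycycline (Dox), Dox islets were whole islets after 1 week of Dox, and No Dox islets were whole islets of the same genotype without it. In this model the rat insulin promoter (RIP) drives the reverse tetracycline transactivator in beta cells, and Dox lets that transactivator switch on the VEGF-A transgene there, so both transgenes are also carried by the No Dox islets. The labels used here give no age or sex and do not say how many animals stand behind each group. The p-values therefore describe only how these samples spread, and that spread may be technical.

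The deposited values are a normalized linear signal with a floor of 1, and they summed to 17626506 to 25218786 per library. The sorted fractions carried their own markers: a list of 10 endothelial markers made up 1.10 to 1.17% of the signal in endothelial cells and 0.00727 to 0.0101% in macrophages, and 10 macrophage markers made up 1.46 to 1.54% in macrophages and 0.0126 to 0.0175% in endothelial cells. Endothelial cell replicate 3 and macrophage replicate 3 held more pericyte and smooth muscle marker signal than the other 2 libraries of their groups, 0.294% against 0.0771 and 0.0826%, and 0.0681% against 0.0182 and 0.0187%. Replicate 2 of both sorted groups held the most acinar marker signal, 0.495% in endothelial cells and 1.76% in macrophages. Results on sorted cells that rest on the third libraries are given with and without them.

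The summed signal of the 43 genes separated the groups. It made up 0.0343 to 0.0607% of the library in macrophages, 0.784 to 0.871% in endothelial cells, 0.864 to 1.14% in Dox islets and 0.217 to 0.317% in No Dox islets. Type IV genes alone gave 0.609 to 0.680% of the library in endothelial cells and 0.402 to 0.515% in Dox islets, whereas fibrillar genes gave 0.00734 to 0.0198% in endothelial cells and 0.248 to 0.440% in Dox islets. The collagen signal of sorted endothelial cells was therefore almost wholly type IV, multiplexin and transmembrane collagen, and that of whole islets was shared between type IV and fibrillar genes.

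**Figure D1:**
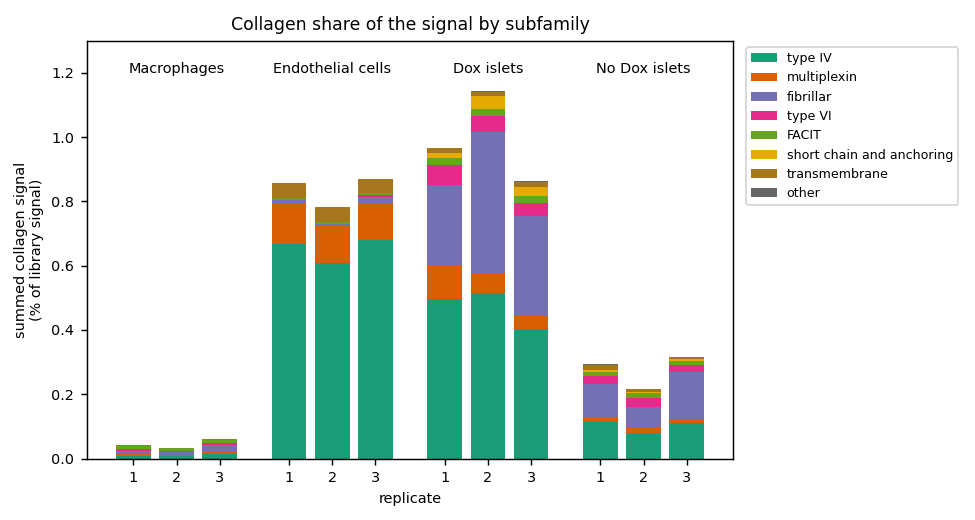
Summed collagen signal of each library as a percent of that library's signal, stacked by subfamily, with 3 replicates in each group. Macrophage bars end at 0.0607% or below, endothelial bars (0.784 to 0.871%) are mostly type IV and multiplexin, and the Dox islet bars (0.864 to 1.14%) stand above the No Dox islet bars (0.217 to 0.317%).

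Levels of different genes were compared per kilobase of exon, since the signal grew with exon length across genes (Spearman's rho 0.42). On that scale Col4a1 was the highest collagen gene in endothelial cells (14527 ± 556 per kb, SD, n = 3), Dox islets (9862 ± 2134 per kb) and, by a margin within the spread, No Dox islets (1699 ± 622 per kb, beside 1556 ± 1058 per kb for Col3a1). Its partner Col4a2 was next in endothelial cells (7201 ± 550 per kb) and in Dox islets (5232 ± 734 per kb). Col15a1 (3842 ± 140 per kb) and Col13a1 (1841 ± 244 per kb) followed in endothelial cells. In Dox islets Col3a1 (4429 ± 2283 per kb) was the next after the type IV pair, and its spread overlapped that of Col4a2. In macrophages no member stood out: Col14a1 (181 ± 25.8 per kb), Col15a1 (171 ± 15.8 per kb), Col4a1 (167 ± 30.5 per kb), Col4a2 (142 ± 46.8 per kb) and Col3a1 (137 ± 92.7 per kb) did not differ beyond their spread.

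**Figure D2:**
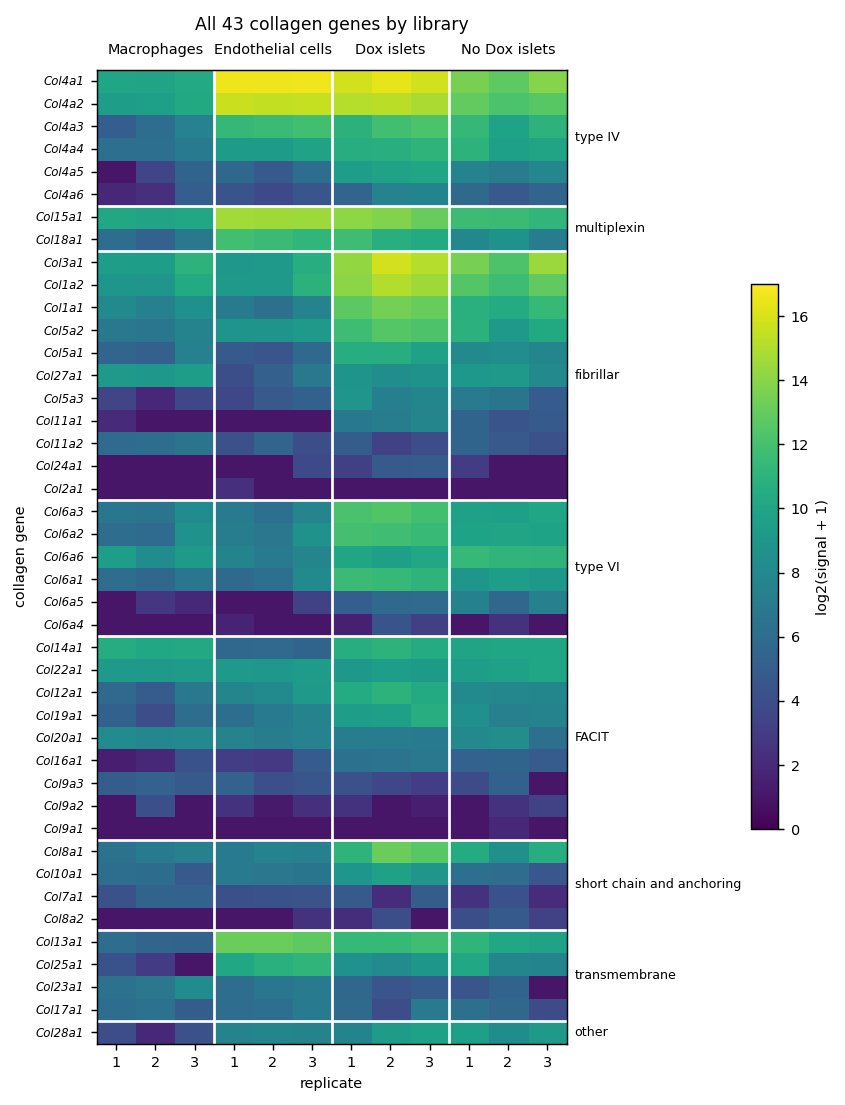
All 43 collagen genes (rows, grouped by subfamily) in the 12 libraries (columns, grouped by fraction), coloured by log2(signal + 1). Col4a1, Col4a2, Col15a1 and Col13a1 are brightest in endothelial cells, Col1a1, Col1a2, Col3a1 and Col6a1 to Col6a3 are brightest in Dox islets, and rows such as Col2a1 and Col9a1 are dark in every fraction.

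Many members lie beside another collagen gene in the mouse genome (build mm9; coordinates as in the deposited table, equal for all 43 genes to those of GENCODE M1). Col4a1 and Col4a2, which encode the chains of the common type IV network, start head to head on chromosome 8 and overlap by 22 bases, where reads of the pair cannot be told apart without the strand. Col4a3 and Col4a4 lie head to head on chromosome 1 with 71 bases between them, and Col4a5 and Col4a6 do so on chromosome X with 1308 bases between them. Col3a1 and Col5a2 lie 24.6 kb apart on chromosome 1, Col6a1 and Col6a2 lie 85.2 kb apart on chromosome 10, and Col6a4, Col6a5 and Col6a6 stand in a row on chromosome 9. Exon length ran between 3095 bases (Col9a2) and 15228 bases (Col12a1), and the median GC content of the members was 53.5%, against 49.1% over the 22660 genes with a value.

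The promoter windows below are examples. Col15a1, Col13a1 and Col18a1 are among the highest collagen genes of endothelial cells per kb, although the Col18a1 values overlapped those of Dox islets. Col1a2 is high in whole islets and low in both sorted fractions. Each window is the 250 bases before a RefSeq start (GRCm38.p6), 5′ to 3′ on the gene's strand, with capitals marking, on either strand, a match to the CCAAT box (letters CCAAT), the GC box (letters GGGCGG), the TATA box (letters TATAAA) or the AP-1 site (letters TGANTCA); no matches overlap in these windows. Col15a1 (chr4:47207762-47208011, plus strand) and the inner start of Col18a1 (chr10:77113706-77113955, minus strand) held none of these motifs. The outer start of Col18a1 (chr10:77166531-77166780, minus strand) held 1 CCAAT box and 3 GC boxes, and Col1a2 (chr6:4505368-4505617, plus strand) held 1 CCAAT box and 2 GC boxes. Col13a1 (chr10:61979109-61979358, minus strand) held 1 match to the TATA box letters, near the end of the window farthest from the start.
Col15a1: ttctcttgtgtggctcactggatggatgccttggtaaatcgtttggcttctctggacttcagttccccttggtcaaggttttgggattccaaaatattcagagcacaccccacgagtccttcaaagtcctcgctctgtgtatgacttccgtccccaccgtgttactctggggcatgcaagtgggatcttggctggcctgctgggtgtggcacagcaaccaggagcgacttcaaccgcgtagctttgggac
Col18a1 outer start: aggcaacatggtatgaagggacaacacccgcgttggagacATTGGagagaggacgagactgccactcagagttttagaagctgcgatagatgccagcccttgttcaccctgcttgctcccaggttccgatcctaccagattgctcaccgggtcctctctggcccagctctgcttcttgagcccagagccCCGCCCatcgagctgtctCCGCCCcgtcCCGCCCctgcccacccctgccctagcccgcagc
Col18a1 inner start: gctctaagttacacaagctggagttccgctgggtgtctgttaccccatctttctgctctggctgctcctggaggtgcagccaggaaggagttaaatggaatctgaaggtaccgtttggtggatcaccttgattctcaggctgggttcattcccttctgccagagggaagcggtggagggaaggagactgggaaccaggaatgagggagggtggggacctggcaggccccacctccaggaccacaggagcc
Col13a1: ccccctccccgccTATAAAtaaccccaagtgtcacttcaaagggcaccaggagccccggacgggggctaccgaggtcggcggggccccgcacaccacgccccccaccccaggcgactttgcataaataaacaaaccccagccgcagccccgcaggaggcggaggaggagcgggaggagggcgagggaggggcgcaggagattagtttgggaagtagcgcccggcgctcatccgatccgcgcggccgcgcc
Col1a2: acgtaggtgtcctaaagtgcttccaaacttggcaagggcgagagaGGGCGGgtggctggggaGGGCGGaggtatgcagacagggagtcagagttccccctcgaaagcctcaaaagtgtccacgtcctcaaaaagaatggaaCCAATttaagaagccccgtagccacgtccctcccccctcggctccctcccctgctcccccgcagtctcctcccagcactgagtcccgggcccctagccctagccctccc
Of the members, 35 matched a RefSeq entry, with 38 windows. The CCAAT box was found in 13 of these 38 windows (34.2%, against 33.8% of all 32851 windows), the GC box in 22 (57.9%, against 32.7%), the TATA box in 5 (13.2%, against 12.4%) and the AP-1 site in 1 (2.63%, against 6.75%). The table gives 1 value per gene, so which Col18a1 start was used was not measured.

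After 1 week of Dox, genes of most collagen subfamilies were higher in whole islets: 3 of the 5 type IV genes tested, both multiplexins, 4 of 6 fibrillar genes, 3 of 4 type VI genes, 2 of 4 FACIT genes and 1 of 2 short chain genes, while 1 type VI gene was lower. Of the 43 genes, 26 passed the filter on low values (a signal of at least 183 in at least 3 of the 6 libraries). Of these, 15 rose and 1 fell in Dox islets against No Dox islets at an adjusted p under 0.05 (limma on log2(signal + 1), Benjamini-Hochberg over all genes tested), where 8.48% of the 10214 genes tested were called, 6.22% higher and 2.26% lower. The median log2 difference of the 26 was 2.11, against 0.11 over all genes tested. Over all 43 members with no filter, the 3 Dox libraries stood above the 3 No Dox libraries for 22, below for 1 (Col6a6), and overlapped for 20, whereas 27.9% of the genes tested did not overlap, 17.3% above and 10.6% below.

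These calls rest on few libraries. Without Dox islet replicate 2 none of the 16 passed the threshold (limma; 17 members were higher and 1 lower at an unadjusted p under 0.05, and 5 of all 10214 genes were called), without Dox islet replicate 3 there were 11 calls (Col1a2, Col4a5, Col5a2, Col19a1 and Col6a6 were lost), and with no filter on low values there were 4, namely Col12a1, Col6a1, Col6a2 and Col6a3. All 16 kept their direction in each of these fits.

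The type IV gene Col4a1 had the highest mean signal of all members in Dox islets, whereas Col3a1 had it in No Dox islets. Col4a1 stood at 58995, 84038 and 58674 in Dox islets, against 11915, 7185 and 15647 in No Dox islets, a log2 difference of 2.59 ± 0.39 (SE; adjusted p = 0.0112, limma). Col4a2 stood at 34845, 39382 and 29667 in Dox islets, against 7555, 4726 and 6182 in No Dox islets (log2 difference 2.51 ± 0.32, adjusted p = 0.00981, limma). Every Dox library was above every No Dox library for both genes of the head-to-head pair, and the per-library ratio of Col4a1 to Col4a2 was 1.69 to 2.13 in Dox islets and 1.52 to 2.53 in No Dox islets.

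Col4a5, an X-linked chain of the minor type IV networks, stood at 698, 907 and 1019 in Dox islets, against 196, 145 and 230 in No Dox islets (log2 difference 2.20 ± 0.36, adjusted p = 0.0113, limma). The other minor chains moved less and were not called. Col4a3 stood at 1904, 3723 and 4583 in Dox islets, against 2512, 931 and 2044 in No Dox islets, and Col4a4 at 1518, 1605 and 2141 in Dox islets, against 1995, 762 and 955 in No Dox islets. The groups overlapped for both (log2 differences 0.92 ± 0.46 and 0.61 ± 0.39; adjusted p = 0.262 and 0.404, limma). Col4a6 did not pass the filter, with 45.1 to 206 in Dox islets and 26.1 to 57.8 in No Dox islets.

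Both multiplexins rose. Col18a1, whose C-terminal fragment is the angiogenesis inhibitor endostatin, stood at 3304, 1645 and 1374 in Dox islets, against 245, 405 and 145 in No Dox islets (log2 difference 3.00 ± 0.47, adjusted p = 0.0113, limma). Col15a1, its closest relative, stood at 17871, 13890 and 8329 in Dox islets, against 3165, 3050 and 2288 in No Dox islets (log2 difference 2.18 ± 0.35, adjusted p = 0.0113, limma). Dox islet replicate 1 was the highest library for both genes, and the groups did not overlap.

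Markers of endothelial cells moved in the same libraries. The 10 endothelial markers summed to 0.441 to 0.538% of the signal in Dox islets, against 0.177 to 0.204% in No Dox islets, none was at the floor throughout, and 6 of the 9 tested rose. Set against that sum, Col4a1 and Col4a2 together gave 0.836 to 0.934 units of signal per unit of endothelial marker signal in Dox islets, 0.344 to 0.537 in No Dox islets and 0.511 to 0.597 in sorted endothelial cells. For Col15a1 and Col18a1 together the islet groups overlapped, at 0.0918 to 0.211 in Dox islets, 0.0599 to 0.0997 in No Dox islets and 0.0972 to 0.111 in sorted endothelial cells. In whole islets, a different number of cells of a type and a different amount of RNA per cell cannot be told apart. What part the marker changes have in the collagen changes was not tested.

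Of the 6 fibrillar genes tested, 4 rose. Col1a1 and Col1a2, the chains of type I collagen, are the most abundant collagens of connective tissue. Col1a1 stood at 6648, 11252 and 8525 in Dox islets, against 1779, 1401 and 2693 in No Dox islets (log2 difference 2.19 ± 0.34, adjusted p = 0.0112, limma). Col1a2 stood at 16957, 34312 and 24538 in Dox islets, against 5627, 3451 and 7461 in No Dox islets (log2 difference 2.21 ± 0.40, adjusted p = 0.0152, limma). The order of the libraries within each group was the same for both genes, and the groups did not overlap.

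Col5a1 and Col5a2 encode chains of type V collagen, which sits in the core of type I fibrils. Col5a1 stood at 1535, 1527 and 849 in Dox islets, against 263, 327 and 220 in No Dox islets (log2 difference 2.24 ± 0.36, adjusted p = 0.0113, limma). Col5a2 stood at 3435, 5840 and 4840 in Dox islets, against 1917, 578 and 1284 in No Dox islets (log2 difference 2.03 ± 0.44, adjusted p = 0.0269, limma). Col3a1, the chain of type III collagen, stood at 19361, 57443 and 34726 in Dox islets, against 11965, 4777 and 22433 in No Dox islets. It was not called (log2 difference 1.64 ± 0.60, adjusted p = 0.127, limma), and No Dox islet replicate 3 lay above Dox islet replicate 1.

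Col27a1, the chain of a cartilage collagen, stood at 342 to 446 in Dox islets and 252 to 559 in No Dox islets and was not called (log2 difference -0.08 ± 0.40). The 5 other fibrillar genes did not pass the filter. Of them Col5a3 stood at 162 to 474 in Dox islets and 30.3 to 120 in No Dox islets, Col11a1 at 117 to 211 in Dox islets and 20.1 to 43.1 in No Dox islets, and both were higher in every Dox library than in every No Dox library.

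Type VI collagen gave the only opposed pair of calls. Its common chains Col6a1, Col6a2 and Col6a3 rose. Col6a1 stood at 3009, 2693 and 2149 in Dox islets, against 483, 716 and 538 in No Dox islets (log2 difference 2.18 ± 0.30, adjusted p = 0.0112, limma). Col6a2 stood at 4085, 3499 and 2836 in Dox islets, against 916, 966 and 950 in No Dox islets (log2 difference 1.86 ± 0.27, adjusted p = 0.0112, limma). Col6a3 stood at 4434, 5362 and 3632 in Dox islets, against 849, 763 and 1040 in No Dox islets (log2 difference 2.33 ± 0.29, adjusted p = 0.00981, limma). These were among the steadiest differences of the family, and each held with no filter on low values.

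Col6a6, a later-described chain that can take the place of Col6a3, was the only collagen gene that fell. It stood at 1023, 763 and 1103 in Dox islets, against 2707, 2251 and 2145 in No Dox islets, with no overlap (log2 difference -1.31 ± 0.28, adjusted p = 0.0269, limma). Its adjusted p was 0.0626 without No Dox islet replicate 1 (limma). The beta cell marker sum was also lower, at 0.826 to 0.891% of the signal in Dox islets, against 1.80 to 2.98% in No Dox islets. What part that marker change has in the Col6a6 change was not tested. Col6a5, the neighbour of Col6a6, did not pass the filter, at 32.9 to 61.0 in Dox islets and 48.2 to 175 in No Dox islets.

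Among the FACIT collagens, which decorate fibril surfaces, Col12a1 and Col19a1 rose. Col12a1 stood at 1383, 2014 and 1333 in Dox islets, against 263, 237 and 221 in No Dox islets (log2 difference 2.69 ± 0.32, adjusted p = 0.00921, limma). Col19a1 stood at 701, 777 and 1508 in Dox islets, against 368, 168 and 193 in No Dox islets (log2 difference 2.03 ± 0.44, adjusted p = 0.0273, limma). The groups did not overlap for either gene, and Col12a1 had the smallest p of the family. Without No Dox islet replicate 3 the adjusted p of Col19a1 was 0.0553 (limma). Col14a1 stood at 1572, 2044 and 1376 in Dox islets, against 980, 1010 and 1018 in No Dox islets, and was not called in spite of the gap (log2 difference 0.71 ± 0.28, adjusted p = 0.159, limma). Col22a1, known from myotendinous junctions, stood at 541 to 729 in Dox islets and 713 to 1060 in No Dox islets and was not called (log2 difference -0.47 ± 0.31, adjusted p = 0.42, limma).

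The largest log2 difference of any member belonged to a gene of low level. Col10a1, the short chain collagen known from hypertrophic cartilage, stood at 485, 854 and 462 in Dox islets, against 74.4, 66.4 and 23.8 in No Dox islets (log2 difference 3.52 ± 0.56, adjusted p = 0.0113, limma). Col8a1, the short chain collagen of vessel walls and endothelial matrices, stood at 2087, 9011 and 6229 in Dox islets, against 1395, 370 and 1542 in No Dox islets. Its groups did not overlap, yet the wide spread left it just short of the threshold (log2 difference 2.40 ± 0.65, adjusted p = 0.0538, limma). Without Dox islet replicate 1, the lowest of its group, Col8a1 was called (3.01; adjusted p = 0.0146, limma).

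Neither tested transmembrane collagen was called in islets (limma; 1 of the 2, Col13a1, was higher at an unadjusted p under 0.05). Col13a1, found at cell-matrix contacts, stood at 2724, 2725 and 3454 in Dox islets, against 2277, 1151 and 890 in No Dox islets (log2 difference 1.15 ± 0.37, adjusted p = 0.0906, limma), and was called without No Dox islet replicate 1 (1.54; adjusted p = 0.0346, limma). Col25a1, known from motor neurons, stood at 393, 291 and 506 in Dox islets, against 1171, 226 and 205 in No Dox islets, where No Dox islet replicate 1 stood apart (log2 difference 0.03 ± 0.64, adjusted p = 0.987, limma).

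**Figure D3:**
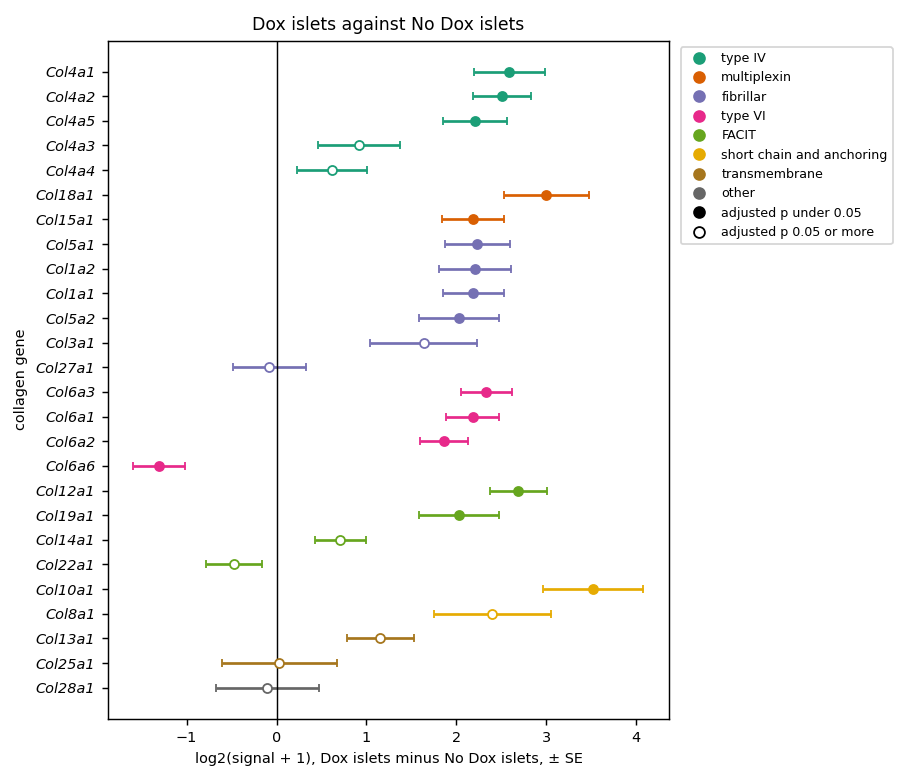
Log2 difference (Dox islets minus No Dox islets, log2(signal + 1), ± SE from limma, 3 libraries a group) of the 26 collagen genes that passed the filter, coloured by subfamily. Filled points (adjusted p under 0.05) lie between 1.86 and 3.52 except for Col6a6 at -1.31; open points are the 10 genes that were not called.

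Stromal markers also moved between the islet groups. Markers of pericytes and smooth muscle summed to 1.10 to 1.76% of the signal in Dox islets, against 0.305 to 0.619% in No Dox islets, and 5 of 11 rose. Markers of fibroblasts and stellate cells summed to 0.0351 to 0.0498% in Dox islets, against 0.0386 to 0.0462% in No Dox islets, and 1 of the 6 tested rose; none of either list was at the floor throughout. Col1a1, Col1a2 and Col3a1 together gave 0.198 to 0.232 units of signal per unit of pericyte and smooth muscle marker signal in Dox islets and 0.145 to 0.279 in No Dox islets. For Col6a1, Col6a2 and Col6a3 together the islet groups overlapped as well, at 0.0255 to 0.0531 in Dox islets and 0.0169 to 0.0456 in No Dox islets. Col3a1, which was not called, had more signal than Col1a1 or Col1a2 in every islet library. The type I genes alone were not set against these markers. Macrophage markers summed to 0.0661 to 0.111% in Dox islets, against 0.0216 to 0.0415% in No Dox islets, and 6 of the 8 tested rose. The part of these marker changes in the collagen changes was not tested.

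GC content also set libraries apart. Values of GC-rich genes were shifted up in Dox islet replicate 1 and No Dox islet replicate 2 (Spearman's rho across genes of a library's deviation with GC content 0.54 and 0.62) and down in the other 4 islet libraries (-0.42 to -0.32). Without those 2 libraries, 15 collagen genes were called and all 15 were higher in Dox islets. Higher genes made up 73.3% of all calls between the islet groups, 56.4% under quantile normalization and 62.2% after median ratio rescaling, which lowered the median of all genes by 0.14 and 0.11 on the log2 scale. Taken relative to that median, all 16 collagen genes kept their direction under both and with the GC trend removed.

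Genes that modify, process and bind collagen gave a mixed picture in islets. Of the list of hydroxylation and folding genes, 16 of 17 in the table were tested and 3 rose, with none lower (limma; none at an unadjusted p under 0.05 either). Serpinh1, the collagen chaperone of the endoplasmic reticulum, averaged 4716 ± 1233 in Dox islets and 902 ± 304 in No Dox islets (SD, n = 3 each; log2 difference 2.40 ± 0.33, adjusted p = 0.0112, limma). Fkbp10, a prolyl isomerase that acts on procollagen, rose by 2.91 ± 0.60 (adjusted p = 0.0236, limma) and the lysyl hydroxylase Plod1 by 1.57 ± 0.34 (adjusted p = 0.0269, limma). P4hb, a subunit of prolyl hydroxylase that also folds other proteins, averaged 7759 ± 1367 in Dox islets and 9954 ± 4578 in No Dox islets and was not called (adjusted p = 0.739, limma).

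Of the processing and cross-linking list, 5 of the 7 genes tested rose. These were the lysyl oxidases Lox (2.39 ± 0.44; adjusted p = 0.0168), Loxl3 (1.95 ± 0.46; adjusted p = 0.0344) and Loxl2 (1.54 ± 0.27; adjusted p = 0.0148), the procollagen N-proteinase Adamts2 (1.92 ± 0.30; adjusted p = 0.0112) and peroxidasin, Pxdn, which cross-links type IV collagen (1.87 ± 0.32; adjusted p = 0.013), all by limma on the log2 scale. Bmp1, the procollagen C-proteinase, averaged 1351 ± 847 in Dox islets and 1159 ± 817 in No Dox islets and was not called (adjusted p = 0.839, limma). Of the receptors and uptake list, 3 of the 7 tested rose: Itgb1, the common beta subunit of collagen-binding integrins (1.68 ± 0.30; adjusted p = 0.0149, limma), Mrc2, a receptor that takes up collagen (1.68 ± 0.35; adjusted p = 0.0241, limma), and Ddr2, a receptor kinase for fibrillar collagen (1.31 ± 0.33; adjusted p = 0.0433, limma). Itga1, the integrin subunit with the highest level of that list, averaged 23945 ± 6757 in Dox islets and 8509 ± 3580 in No Dox islets and was not called (adjusted p = 0.0526, limma). The share of all genes that rose, 6.22%, stands beside these counts, which also rest on Dox islet replicate 2, since without it 5 of all 10214 genes were called.

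Sorted endothelial cells were then set against the whole Dox islets from which such cells come. Of the 26 collagen genes tested, 3 were higher in endothelial cells and 17 lower, where 31.5% of the 10187 genes tested were called, 14% higher and 17.5% lower. The median log2 difference was -2.71 for the 26 and 0.08 over all genes tested. Of the 43 members, endothelial libraries stood above all Dox islet libraries for 6 and below them for 22, against 25.6 and 22.8% of the genes tested (48.3% in either direction). Those counts include members below the filter, whereas the background holds only genes tested. Of the 9 endothelial markers tested, 8 were higher in endothelial cells, with a median log2 difference of 1.38.

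The 3 higher genes were 2 transmembrane collagens and a multiplexin. Col25a1 stood at 1139, 1766 and 2244 in endothelial cells, against 393, 291 and 506 in Dox islets (log2 difference 2.09 ± 0.31, adjusted p = 0.00132, limma). Col13a1 stood at 9115, 9166 and 7195 in endothelial cells, against 2724, 2725 and 3454 in Dox islets (log2 difference 1.52 ± 0.18, adjusted p = 0.000408, limma). Both had no overlap, and the gap of each was as large as or larger than the median of the endothelial markers.

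Col15a1 stood at 25393, 24075 and 23706 in endothelial cells, against 17871, 13890 and 8329 in Dox islets (log2 difference 0.94 ± 0.28, adjusted p = 0.0341, limma). Its adjusted p was 0.205 with the GC trend removed, 0.159 under quantile normalization, 0.128 with no filter on low values, and 0.0625 to 0.115 when any endothelial library, Dox islet replicate 2 or Dox islet replicate 3 was left out. Removing the GC trend also left Col13a1 short of the threshold (0.78; adjusted p = 0.0626, limma). That correction lowered the median of all genes by 0.32 on the log2 scale, so that higher genes made up 21.9% of all calls, against 44.4% without it. Relative to the median of all genes, Col13a1 stood at 1.02 with the GC trend removed and 1.44 without.

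The main type IV chains and Col18a1 were not called. Col4a1 stood at 95526, 98554 and 103054 in endothelial cells, above all 3 Dox islet values of 58995, 84038 and 58674 (log2 difference 0.58 ± 0.23, adjusted p = 0.0881, limma). Col4a2 stood at 51522, 44283 and 47184 in endothelial cells, above the Dox islet values of 34845, 39382 and 29667 (log2 difference 0.47 ± 0.19, adjusted p = 0.103, limma). Col18a1 stood at 3731, 3094 and 2382 in endothelial cells, which overlapped the Dox islet values of 3304, 1645 and 1374 (log2 difference 0.63 ± 0.34, adjusted p = 0.189, limma). Without Dox islet replicate 1 all 3 were called, which brought the higher genes to 6, and without Dox islet replicate 2 Col4a1 was called (0.75; adjusted p = 0.0229, limma). With the GC trend removed these 3 differences turned to -0.11, -0.45 and -0.25. All 3 were smaller in the uncorrected fit than the median difference of the endothelial markers, a comparison that was not tested.

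The minor type IV chains parted from each other in the sort. Col4a3 stood at 2581, 3094 and 3626 in endothelial cells, against 1904, 3723 and 4583 in Dox islets (log2 difference -0.06 ± 0.32, adjusted p = 0.906, limma). Col4a4, its head-to-head neighbour, stood at 643, 678 and 885 in endothelial cells, against 1518, 1605 and 2141 in Dox islets, and was lower (log2 difference -1.25 ± 0.22, adjusted p = 0.00293, limma). The per-library ratio of Col4a3 to Col4a4 was 4.01 to 4.56 in endothelial cells, 1.25 to 2.32 in Dox islets and 1.22 to 2.14 in No Dox islets. Col4a5 stood at 53.0, 27.3 and 69.1 in endothelial cells, against 698, 907 and 1019 in Dox islets (log2 difference -4.19 ± 0.39, adjusted p = 0.00011, limma). The CD31+ cells held little Col4a5 signal, whereas the gene rose with Dox in whole islets.

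Fibrillar collagens were the most depleted in the endothelial sort. Col1a1 stood at 131, 74.9 and 196 in endothelial cells, against 6648, 11252 and 8525 in Dox islets (log2 difference -6.10 ± 0.36, adjusted p = 1.62e-05, limma). Col3a1 stood at 532, 560 and 1558 in endothelial cells, against 19361, 57443 and 34726 in Dox islets (log2 difference -5.45 ± 0.50, adjusted p = 0.00011, limma). Col1a2 stood at 594, 555 and 1949 in endothelial cells, against 16957, 34312 and 24538 in Dox islets (log2 difference -4.81 ± 0.49, adjusted p = 0.00018, limma). Endothelial replicate 3 was the highest of its group for each of these, as it was for the pericyte and smooth muscle markers.

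Type V followed with a difference between its chains. Col5a1 stood at 27.7, 21.1 and 55.7 in endothelial cells, against 1535, 1527 and 849 in Dox islets (log2 difference -5.25 ± 0.43, adjusted p = 6.25e-05, limma). Col5a2 stood at 438, 445 and 575 in endothelial cells, against 3435, 5840 and 4840 in Dox islets (log2 difference -3.25 ± 0.24, adjusted p = 3.83e-05, limma). The per-library ratio of Col5a1 to Col5a2 was 0.0474 to 0.0969 in endothelial cells and 0.176 to 0.447 in Dox islets. All 6 fibrillar genes tested were lower, with Col27a1 at 16.3 to 109 in endothelial cells and 342 to 446 in Dox islets.

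The type VI genes tested were lower in endothelial cells by unequal amounts. Col6a3 stood at 126, 71.9 and 212 in endothelial cells, against 4434, 5362 and 3632 in Dox islets (log2 difference -5.14 ± 0.38, adjusted p = 3.95e-05, limma). Col6a1 stood at 55.8, 74.5 and 282 in endothelial cells, against 3009, 2693 and 2149 in Dox islets (log2 difference -4.60 ± 0.55, adjusted p = 0.000429, limma). Col6a2 stood at 148, 105 and 399 in endothelial cells, against 4085, 3499 and 2836 in Dox islets (log2 difference -4.21 ± 0.45, adjusted p = 0.00025, limma). Col6a6 was lower too, at 203, 120 and 213 in endothelial cells and 1023, 763 and 1103 in Dox islets (log2 difference -2.45 ± 0.30, adjusted p = 0.000454, limma). All 4 type VI genes tested were therefore lower in the CD31+ cells.

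Col14a1 stood at 49.3, 54.1 and 42.8 in endothelial cells, against 1572, 2044 and 1376 in Dox islets (log2 difference -5.05 ± 0.26, adjusted p = 1.12e-05, limma). Col8a1 stood at 126, 189 and 166 in endothelial cells, against 2087, 9011 and 6229 in Dox islets (log2 difference -4.94 ± 0.49, adjusted p = 0.00017, limma). Col12a1, Col10a1 and Col19a1 were lower as well. Col12a1 stood at 211, 277 and 560 in endothelial cells, against 1383, 2014 and 1333 in Dox islets (log2 difference -2.27 ± 0.37, adjusted p = 0.00217, limma). Col10a1 stood at 120, 104 and 94.6 in endothelial cells, against 485, 854 and 462 in Dox islets (log2 difference -2.43 ± 0.31, adjusted p = 0.000638, limma). Col19a1 stood at 70.6, 124 and 192 in endothelial cells, against 701, 777 and 1508 in Dox islets (log2 difference -2.96 ± 0.44, adjusted p = 0.00129, limma).

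Stromal markers were lower in the endothelial sort than in Dox islets, and acinar markers were not low in every library. Pericyte and smooth muscle markers summed to 0.0771 to 0.294% of the signal in endothelial cells, against 1.10 to 1.76% in Dox islets, and all 11 tested were lower. Fibroblast and stellate markers summed to 0.000407 to 0.000918% in endothelial cells, against 0.0351 to 0.0498% in Dox islets, and all 6 tested were lower. Acinar markers summed to 0.0244, 0.495 and 0.00125% in endothelial cells, against 0.392 to 1.26% in Dox islets, so that endothelial replicate 2 lay within the Dox islet range. The part of these markers in the collagen differences was not tested. Without endothelial replicate 3, 19 collagen genes were called, 2 higher and 17 lower.

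**Figure D4:**
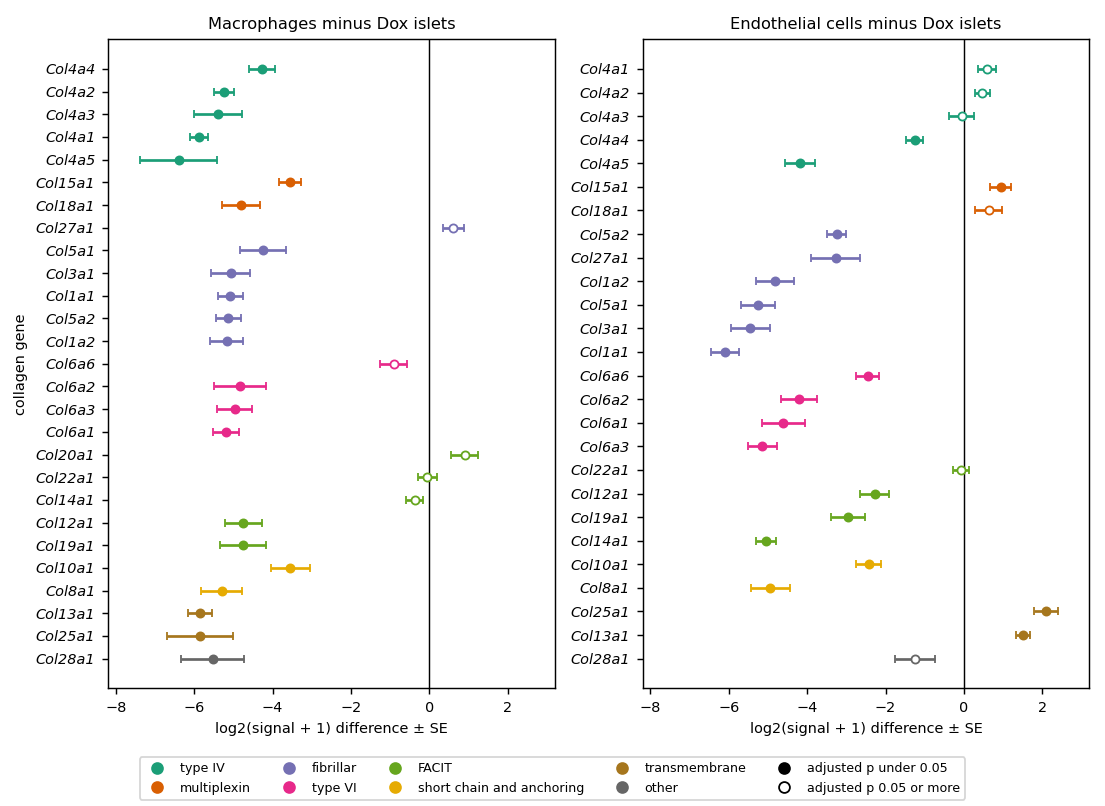
Log2 differences (± SE, limma, 3 libraries a group) of the tested collagen genes in macrophages minus Dox islets (left) and endothelial cells minus Dox islets (right), coloured by subfamily, with filled points for an adjusted p under 0.05. In endothelial cells the fibrillar and type VI points lie between -6.10 and -2.45, while Col13a1, Col15a1 and Col25a1 lie above 0; in macrophages all filled points lie at -3.55 or below.

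Macrophages held little collagen signal. Against Dox islets, 27 collagen genes were tested, none was higher and 22 were lower, where 56% of the 10687 genes tested were called, 24.7% higher and 31.3% lower (limma; 1 member, Col20a1, was higher at an unadjusted p under 0.05). Of the 43 members, macrophage libraries stood above all Dox islet libraries for 5 and below them for 30, against 28.1 and 35.6% of the genes tested (63.7% in either direction). Here too the counts include members below the filter and the background does not. The median log2 difference of the 27 was -4.97, against -0.12 over all genes tested. The 22 calls held in each of the 15 alternative fits, and 1 or 2 members were called higher in 7 of them. Macrophages and endothelial cells were set against the same 3 Dox islet libraries, so the comparisons share those samples.

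Type IV and multiplexin genes were lower by large factors. Col4a1 stood at 1054, 981 and 1372 in macrophages, against 58995, 84038 and 58674 in Dox islets (log2 difference -5.88 ± 0.23, adjusted p = 8.54e-07, limma). Col4a5 stood at 1, 11 and 44.1 in macrophages, against 698, 907 and 1019 in Dox islets (log2 difference -6.40 ± 0.98, adjusted p = 0.000501, limma), where the value of 1 is the floor of the table. Col4a3 stood at 32.7, 67.7 and 188 in macrophages, against 1904, 3723 and 4583 in Dox islets (log2 difference -5.39 ± 0.60, adjusted p = 7.27e-05, limma). Macrophage replicate 3 was the highest of its group for all 3 genes.

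Col4a2 stood at 736, 782 and 1294 in macrophages, against 34845, 39382 and 29667 in Dox islets (log2 difference -5.24 ± 0.25, adjusted p = 1.13e-06, limma). Col4a4 stood at 73.7, 71.7 and 133 in macrophages, and its log2 difference from Dox islets was -4.27 ± 0.34 (adjusted p = 1.1e-05, limma). Col18a1 stood at 68.2, 40.5 and 118 in macrophages (-4.81 ± 0.48; adjusted p = 3.62e-05, limma). Col15a1 kept more signal, at 1108, 975 and 1172 in macrophages (-3.56 ± 0.28; adjusted p = 9.8e-06, limma). Endothelial markers summed to 0.00727 to 0.0101% of the signal in macrophages, and Col15a1 and Col18a1 together gave 0.524 to 0.763 units of signal per unit of endothelial marker signal there, against 0.0972 to 0.111 in sorted endothelial cells. The ratio for Col4a1 and Col4a2 together was also higher, at 0.797 to 1.58 in macrophages and 0.511 to 0.597 in sorted endothelial cells. The source of this collagen signal was not tested.

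Both transmembrane genes tested were lower in macrophages than in Dox islets, as were Col28a1 and Col8a1. Col25a1 stood at 18.8, 6.68 and 1, the floor, in macrophages, against 393, 291 and 506 in Dox islets (log2 difference -5.85 ± 0.85, adjusted p = 0.000344, limma). Col13a1 stood at 66.3, 45.4 and 42.3 in macrophages, against 2724, 2725 and 3454 in Dox islets (log2 difference -5.84 ± 0.31, adjusted p = 1.39e-06, limma). Col28a1 stood at 15.4, 2.75 and 17.7 in macrophages, against 202, 664 and 835 in Dox islets (log2 difference -5.53 ± 0.81, adjusted p = 0.000364, limma). Col8a1 stood at 83.9, 131 and 171 in macrophages, against 2087, 9011 and 6229 in Dox islets (log2 difference -5.30 ± 0.52, adjusted p = 3.33e-05, limma). The groups did not overlap for any of these genes. Among the transmembrane genes below the filter, Col23a1 was higher in every macrophage library than in every Dox islet library, and Col17a1 overlapped.

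Type I and type III genes were also lower in macrophages than in Dox islets. Col1a1 stood at 262, 167 and 375 in macrophages, Col1a2 at 478, 473 and 1345, and Col3a1 at 713, 696 and 2052. Their log2 differences from Dox islets were -5.08 ± 0.33, -5.17 ± 0.42 and -5.07 ± 0.49, with adjusted p between 3.53e-06 and 3.19e-05 (limma). Replicate 3 stood apart for Col1a2 and Col3a1, as it did for the pericyte and smooth muscle markers.

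Col5a1 stood at 45.0, 35.8 and 173 in macrophages (-4.24 ± 0.59; adjusted p = 0.000268, limma), and Col5a2 at 113, 102 and 193 (-5.13 ± 0.32; adjusted p = 3.24e-06, limma). Col6a1 stood at 65.4, 52.2 and 103 in macrophages (-5.18 ± 0.33; adjusted p = 3.53e-06, limma), Col6a2 at 65.3, 61.7 and 430 (-4.82 ± 0.67; adjusted p = 0.000261, limma) and Col6a3 at 100, 91.6 and 300 (-4.97 ± 0.44; adjusted p = 1.93e-05, limma). Replicate 3 was again the highest library for each of these. Col12a1 stood at 55.4, 30.3 and 109, Col19a1 at 38.0, 14.9 and 66.1, and Col10a1 at 69.3, 63.7 and 25.6 in macrophages, with log2 differences from Dox islets of -4.74 ± 0.47, -4.76 ± 0.58 and -3.55 ± 0.50 (adjusted p between 3.74e-05 and 0.000297, limma). All of these were below every Dox islet library.

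A few collagens did not follow. Col14a1 stood at 1474, 1126 and 1216 in macrophages, against 1572, 2044 and 1376 in Dox islets (log2 difference -0.38 ± 0.23, adjusted p = 0.187, limma). Col6a6 stood at 722, 311 and 580 in macrophages, against 1023, 763 and 1103 in Dox islets, and sat at the threshold (log2 difference -0.91 ± 0.35, adjusted p = 0.0509, limma). Col27a1 stood at 533 to 710 in macrophages and 342 to 446 in Dox islets, Col22a1 at 567 to 665 in macrophages and 541 to 729 in Dox islets, and Col20a1 at 230 to 287 in macrophages and 123 to 150 in Dox islets. None of these 5 was called, with adjusted p between 0.0509 and 0.864 (limma). Without Dox islet replicate 1, Col20a1 (0.96) and Col27a1 (0.69) were called higher, and without macrophage replicate 1, Col6a6 (-1.16) was called lower (adjusted p between 0.0355 and 0.0461, limma).

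Set directly against endothelial cells, macrophages were higher for 3 collagen genes and lower for 11 of the 19 tested, where 65.4% of the 10145 genes tested were called, 29.4% higher and 36% lower. Of the 43 members, macrophage libraries stood above all endothelial libraries for 5 and below them for 13, against 31.6 and 39.9% of the genes tested (71.5% in either direction). The 43 members include genes below the filter, which the background does not.

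The 3 genes higher in macrophages were Col14a1, Col27a1 and Col6a6. Col14a1, which binds fibrils, stood at 1474, 1126 and 1216 in macrophages, against 49.3, 54.1 and 42.8 in endothelial cells (log2 difference 4.67 ± 0.23, adjusted p = 6.04e-07, limma). Col27a1 stood at 581, 533 and 710 in macrophages, against 16.3, 35.6 and 109 in endothelial cells (log2 difference 3.88 ± 0.61, adjusted p = 0.000644, limma). Col6a6 stood at 722, 311 and 580 in macrophages, against 203, 120 and 213 in endothelial cells (log2 difference 1.55 ± 0.37, adjusted p = 0.00672, limma). None of the 3 overlapped. The sum of fibroblast and stellate markers was 0.00128 to 0.00236% in macrophages, 0.000407 to 0.000918% in endothelial cells and 0.0351 to 0.0498% in Dox islets.

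The 11 genes lower in macrophages were led by transmembrane and type IV genes. The log2 difference was -7.94 ± 0.76 for Col25a1 and -7.36 ± 0.21 for Col13a1 (adjusted p = 3.45e-05 and 6.24e-08, limma). It was -6.46 ± 0.13 for Col4a1, -5.71 ± 0.21 for Col4a2, -5.34 ± 0.55 for Col4a3 and -3.02 ± 0.30 for Col4a4 (adjusted p between 2.46e-08 and 5.22e-05, limma). For the multiplexins it was -5.43 ± 0.38 (Col18a1) and -4.49 ± 0.10 (Col15a1; adjusted p = 4.81e-06 and 2.53e-08, limma). Col28a1, at 2.75 to 17.7 in macrophages and 191 to 223 in endothelial cells, differed by -4.28 ± 0.62 (adjusted p = 0.000402, limma). Col12a1 and Col5a2 completed the list at -2.47 ± 0.54 and -1.88 ± 0.30 (adjusted p = 0.004 and 0.000695, limma).

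The type I and III genes did not separate the sorted fractions in the main fit, which had no block. The log2 difference was 1.02 ± 0.43 for Col1a1, 0.38 ± 0.53 for Col3a1 and -0.36 ± 0.57 for Col1a2 (adjusted p = 0.0694, 0.556 and 0.601, limma). With the replicate number as a block, since same-numbered sorted libraries deviated together, Col1a1 (adjusted p = 0.00918) and Col3a1 (adjusted p = 0.0311) were higher in macrophages (limma). Without the third library of each fraction, Col1a1 was also called (1.07; adjusted p = 0.0358, limma), as it was without macrophage replicate 2 (1.32) or endothelial replicate 3 (1.35; adjusted p = 0.039 and 0.0334, limma). Col22a1 (0.03 ± 0.16) and Col20a1 (0.58 ± 0.24) were not called (adjusted p = 0.884 and 0.0649, limma).

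**Figure D5:**
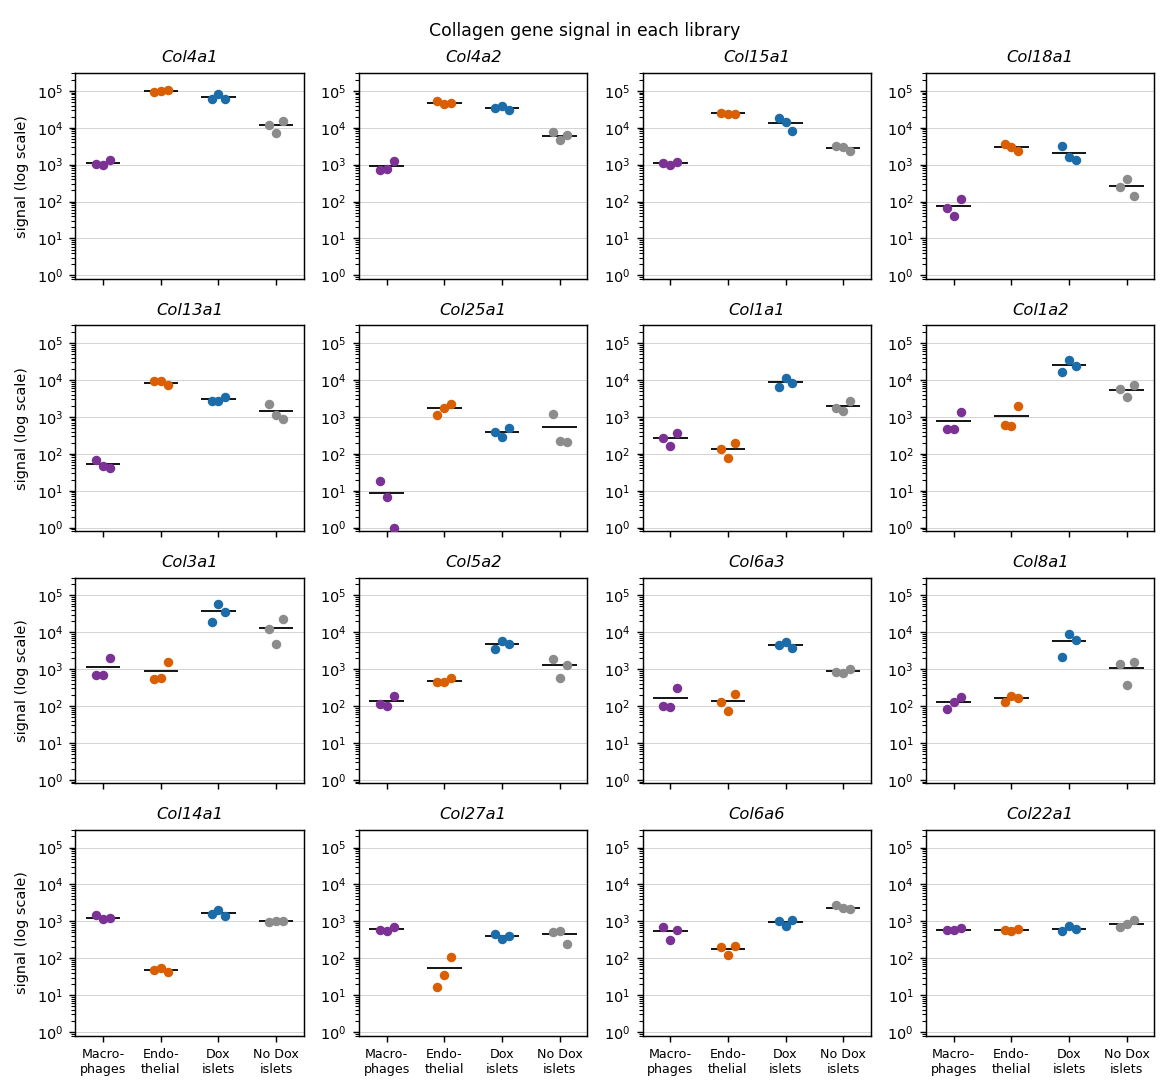
Signal of 16 collagen genes in every library on a log scale, with a bar at each group mean (n = 3). Col4a1, Col4a2 and Col15a1 are highest in endothelial cells, Col1a1, Col1a2, Col3a1 and Col6a3 are low in both sorted fractions, and Col14a1 and Col27a1 are low in endothelial cells but not in macrophages.

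The genes that act on collagen were counted in the sorted fractions in the same way. Of 16 tested hydroxylation and folding genes, 2 were higher and 2 lower in endothelial cells against Dox islets, where 14% of all genes tested were higher and 17.5% lower, so that the count of the list lies near the background. Glt25d2, a galactosyltransferase for collagen, averaged 4594 ± 245 in endothelial cells and 1409 ± 226 in Dox islets (log2 difference 1.72 ± 0.17, adjusted p = 0.000163, limma), and Plod1 was higher by 1.06 ± 0.26 (adjusted p = 0.0162, limma). The prolyl 3-hydroxylase genes Leprel1 (-2.34 ± 0.35; adjusted p = 0.00149, limma) and Leprel2 (-1.72 ± 0.39; adjusted p = 0.012, limma) were lower. Serpinh1 averaged 5214 ± 654 in endothelial cells and 4716 ± 1233 in Dox islets and was not called (adjusted p = 0.576, limma), as was P4hb (5378 ± 460 in endothelial cells and 7759 ± 1367 in Dox islets; adjusted p = 0.0653, limma).

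Of the 8 processing and cross-linking genes tested in endothelial cells against Dox islets, 5 were lower and 1 higher. Lox averaged 39.7 ± 15.5 in endothelial cells and 1433 ± 578 in Dox islets (log2 difference -5.13 ± 0.41, adjusted p = 5.96e-05, limma), and Adamts2 (-4.75 ± 0.29; adjusted p = 1.75e-05), Loxl2 (-4.25 ± 0.48; adjusted p = 0.000311) and Loxl3 (-1.96 ± 0.35; adjusted p = 0.00367) were lower by limma as well. Pxdn was the gene that was higher, at 6990 ± 81.7 in endothelial cells and 4563 ± 606 in Dox islets (log2 difference 0.62 ± 0.16, adjusted p = 0.0195, limma). Bmp1 averaged 2061 ± 442 in endothelial cells and 1351 ± 847 in Dox islets and was not called (adjusted p = 0.18, limma). Of the 6 receptor and uptake genes tested, none was higher in endothelial cells (limma; 1 at an unadjusted p under 0.05) and 3 were lower: Lair1 (-5.80 ± 0.50; adjusted p = 8.26e-05, limma), an inhibitory collagen receptor of leukocytes, Mrc2 (-3.56 ± 0.31; adjusted p = 7.94e-05, limma) and Ddr2 (-3.18 ± 0.43; adjusted p = 0.000802, limma). Itga1 averaged 19757 ± 2353 in endothelial cells and 23945 ± 6757 in Dox islets and was not called (adjusted p = 0.468, limma).

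In macrophages against Dox islets, 10 of the 16 hydroxylation and folding genes tested were lower and 1 was higher, the galactosyltransferase gene Glt25d1, at 2233 ± 372 in macrophages and 878 ± 435 in Dox islets (log2 difference 1.46 ± 0.36, adjusted p = 0.00787, limma). Of all genes tested in this comparison, 31.3% were lower and 24.7% higher. Fkbp10 (-6.78 ± 0.73; adjusted p = 5.63e-05), Serpinh1 (-5.29 ± 0.31; adjusted p = 2.28e-06), Plod2 (-5.25 ± 0.51; adjusted p = 3.19e-05) and Fkbp14 (-4.41 ± 0.36; adjusted p = 1.15e-05) differed most by limma, and P4hb (5847 ± 95.8 in macrophages and 7759 ± 1367 in Dox islets; adjusted p = 0.119) was not called. Of the 7 processing and cross-linking genes tested, 6 were lower and none was higher (limma; none at an unadjusted p under 0.05 either), led by Lox (-5.75 ± 0.52; adjusted p = 2.25e-05), Adamts2 (-5.61 ± 0.68; adjusted p = 0.000121), Pxdn (-5.28 ± 0.29; adjusted p = 1.76e-06) and Loxl2 (-4.72 ± 0.50; adjusted p = 5.06e-05). Loxl3 averaged 508 ± 84.2 in macrophages and 573 ± 209 in Dox islets and was not called (adjusted p = 0.795, limma). Of the 6 receptor and uptake genes tested, 5 were lower and Lair1 was higher, at 8248 ± 1337 in macrophages and 470 ± 102 in Dox islets (log2 difference 4.14 ± 0.23, adjusted p = 1.81e-06, limma). The largest differences of the lower ones were those of Itga1 (-5.58 ± 0.31; adjusted p = 1.75e-06, limma), Ddr2 and the integrin subunit gene Itga2.

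Set against endothelial cells, macrophages were lower for 9 and higher for 1 of the 16 hydroxylation and folding genes, lower for 4 and higher for 1 of the 5 processing and cross-linking genes, and lower for 4 and higher for 1 of the 5 receptor and uptake genes that were tested. Of all genes tested in this comparison 65.4% were called, 36% lower and 29.4% higher, which is near the share called in the first of these lists. The folding genes were led by Fkbp10 (-7.33 ± 0.52; adjusted p = 5.75e-06, limma), Serpinh1 (-5.46 ± 0.23; adjusted p = 3.24e-07, limma), Plod2 and Fkbp14, and P4hb was not called (adjusted p = 0.267, limma). The largest differences of the other lists were those of Tll1, a procollagen C-proteinase (-6.78 ± 0.37; adjusted p = 1.11e-06, limma), Bmp1 (-4.75 ± 0.21; adjusted p = 3.92e-07, limma), Lair1 (9.94 ± 0.41; adjusted p = 2.77e-07, limma) and Itga1 (-5.33 ± 0.24; adjusted p = 4.27e-07, limma). Pxdn, which acts on type IV collagen, stood at 120 ± 35.2 in macrophages and 6990 ± 81.7 in endothelial cells (log2 difference -5.90 ± 0.23, adjusted p = 1.99e-07, limma).

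The remaining members were low throughout. Of the 43 genes, 16 were tested in none of the comparisons, with signals between 1 and 474, the highest being Col5a3 in Dox islet replicate 1. Col2a1 and Col9a1, the cartilage collagens of types II and IX, were at the floor of 1 in 11 libraries each, with 4.10 (Col2a1) and 2.84 (Col9a1) in the twelfth. Col23a1, a transmembrane collagen, stood at 84.6, 107 and 302 in macrophages, 66.7, 99.9 and 119 in endothelial cells, 49.5, 20.9 and 30.2 in Dox islets and 22.9, 41.2 and 1 in No Dox islets.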

How the data were processed

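RNA was sequenced after amplification (NuGEN Ovation) on a HiSeq2500, per the labels' protocols. The submitters' processing notes name TopHat2 2.0 and build mm9. The deposited table holds 1 signal value per gene and library, already normalized by the authors, with a floor of 1; how is not given in the sources used here. Low values lay on whole steps, but depth in reads was not recovered, so no counting interval is given; the strand setting of the counting is not given either.

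In these values, 25 gene symbols stored as dates were restored. For each of the 76 symbols with several rows, the row with the highest mean was kept. This dropped 82 rows and left 22711 genes. Differences were fitted with limma 3.58.1 (R 4.3.3) on log2(signal + 1), which understates the change of low genes, using the 6 libraries of each comparison and a variance trend. Genes needed a signal of at least 183, the 40th percentile of values above the floor, in at least 3 libraries; p-values were adjusted over all genes tested (Benjamini-Hochberg) at 0.05. The fit was also run on simulated data, drawn independently for each gene and library. Those data held no GC shift and no paired libraries, so the run does not cover these features.

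Values in every sample are given for members called between the islet groups and members averaging 1259 or more in any group (the upper quartile of values above the floor). In sorted cells the 8 largest called differences in each direction are added. Of the lists of collagen-modifying genes, the 4 largest called differences and the highest gene not called are named. Members and lists were chosen with earlier results of these data known.

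Same-numbered macrophage and endothelial libraries deviated together across genes (r = 0.27, 0.51 and 0.45, each library closest to its own number). This pairing comes from the data and not from a label. The GC shift ran alike in these libraries. Spearman's rho of a library's deviation with GC content was 0.40 in endothelial and 0.29 in macrophage replicate 1. It was -0.33 and -0.26 in replicate 2, and -0.12 and -0.0084 in replicate 3. What part GC content has in the pairing was not tested. The main fit had no block, so its p-values leave the pairing out, and the block is an alternative. With the block 5 members were higher in macrophages and 11 lower, against 3 and 11 in the main fit. Between the other groups not every same-numbered r passed 0.1.

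Alternatives covered the filter, pseudocount, normalization, GC trend, shared fit, variance trend, replicate block and leaving out each library. A lower filter, leaving out No Dox islet replicate 2 with Dox islet replicate 1, and leaving out the third sorted libraries were added after seeing the data.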

Additional observations from a re-analysis of the deposited data

How the results depend on the processing

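Between the islet groups 16 collagen genes were called. The count was 4 with no filter on low values and 0 to 17 when 1 library was left out (0 without Dox islet replicate 2, by limma, with 17 members higher and 1 lower at an unadjusted p under 0.05). The causes were not tested. Elsewhere the counts were 20 in endothelial cells against Dox islets (19 to 26 over the alternatives), 22 in macrophages against Dox islets (22 to 29) and 14 in macrophages against endothelial cells (14 to 16). With the replicate block the counts were 16, 22, 23 and 16 in that order of comparisons. In the islets no label says whether the numbers pair the samples. Same-numbered islet libraries correlated at -0.21, -0.66 and 0.19. These values cannot settle it, since the GC shifts of the islet groups were opposed in replicates 1 and 2. Between the islet groups Col6a6 was not called with the block (adjusted p = 0.0684, limma).

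The called members kept their direction in every alternative. Of the members that were not called, Col25a1 between islet groups turned to -0.10 under quantile normalization, -0.077 after median ratio rescaling and -0.35 without No Dox islet replicate 2 and Dox islet replicate 1, while Col27a1 and Col28a1 turned to 0.045 and 0.15 without those 2 libraries. In endothelial cells against Dox islets, Col22a1 turned to 0.14 under quantile normalization, and Col18a1, Col4a1 and Col4a2 turned to -0.25, -0.11 and -0.45 with the GC trend removed. In macrophages against Dox islets, Col22a1 turned to 0.20 under quantile normalization and 0.055 after median ratio rescaling. Leaving out 1 library gave differences of -0.50 to 0.52 for Col28a1, -0.44 to 0.13 for Col27a1, -0.41 to 0.85 for Col25a1 between islet groups. It gave -0.43 to 0.21 for Col4a3, -0.18 to 0.032 for Col22a1 in endothelial cells against Dox islets. It gave -0.15 to 0.061 for Col22a1 in macrophages against Dox islets. It gave -0.046 to 0.086 for Col22a1, -0.14 to 0.88 for Col3a1, -0.86 to 0.23 for Col1a2 in macrophages against endothelial cells. The signal scale gives no depth in reads, so the precision of low values is unknown.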
